A study of Homo sapiens with 9 samples.

Results

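The genes described here are 58 genes of mitosis and chromosome segregation, chosen by their symbols from a fixed list among the 27800 gene symbols of the deposited table. All 58 symbols were found in the table, and all 58 passed the filter of at least 1 TPM (TPM is the share of a library's transcripts, corrected for transcript length) in at least 3 of the 9 libraries. In 55 of them the level reached 1 TPM in every library, and KIF14, CENPF and NUF2 were under it in 1 or more libraries. Total RNA was sequenced from Huh7, an established human hepatocellular carcinoma line, grown in DMEM with serum. The control group received vehicle, which the labels do not name further (3 libraries). The other groups received FIDAS-5, an inhibitor of the methionine adenosyltransferase MAT2A, at 5 uM for 48 h (3 libraries), or JQ1, an inhibitor of BET bromodomain proteins, at 0.5 uM for 48 h (3 libraries). Both compounds were compared with the same vehicle libraries, each was given at 1 dose, and a single cell line was used. Nothing in the labels tells if replicate libraries are from different cultures, so a p-value here reflects library-to-library spread that may be technical.

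Entry into mitosis is driven by the kinase CDK1 with its A-type and B-type cyclins, and Polo-like and Aurora kinases then organise the spindle and the kinetochores, the protein plates that hold chromosomes to microtubules. The spindle checkpoint delays anaphase until every kinetochore is attached, after which the ubiquitin ligase APC/C with CDC20 destroys cyclin B and securin, separase opens cohesin, and cytokinesis divides the cell. Most of these genes are transcribed late in the cell cycle. Their promoters often carry the cell cycle homology region (CHR), which is bound by the MuvB complex. MuvB represses them in resting cells as part of DREAM, and activates them in dividing cells together with MYBL2 and FOXM1. In liver tumour lines such genes are used as markers of proliferation.

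The promoter sequences are shown because the genes moved together and the CHR is the element best known for such genes. RefSeq promoters (build GRCh38.p14, 250 bases before to 50 after the annotated start) were matched by symbol for 50 of the 58 genes. The others were AURKA, FOXM1, TTK, BUB3, UBE2C, BIRC5, TPX2 and RACGAP1. Where a gene had several annotated starts (8 of the 50), the first listed was used. The CHR was searched as TTTGAA or TTTAAA, the CCAAT box as CCAAT and the E2F core as GCGGGAA or GCGCGAA, all on both strands. Each sequence below runs from 130 bases upstream to the base before the annotated start, 5′ to 3′ on the strand of the gene, with matches to the CHR hexamers and the CCAAT box in capitals (TTCAAA and ATTGG are the same motifs on the opposite strand). CCNB1, PLK1, CDC20 and KIF20A stand for genes that fell with both compounds. NUSAP1, ASPM and KIF18A fell with FIDAS-5 and were higher with JQ1 than with FIDAS-5. CENPI followed the same pattern of calls, and its first listed start has no match to the CHR or CCAAT box. That start lies inside the annotated gene (chromosome X, 101098204 to 101181859), so the stretch shown is not upstream of the whole gene. CDC25B was not called with either compound and has neither motif, though its promoter holds E2F core matches.
CCNB1: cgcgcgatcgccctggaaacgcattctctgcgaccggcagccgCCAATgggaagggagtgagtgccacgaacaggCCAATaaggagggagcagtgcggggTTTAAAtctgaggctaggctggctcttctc
PLK1: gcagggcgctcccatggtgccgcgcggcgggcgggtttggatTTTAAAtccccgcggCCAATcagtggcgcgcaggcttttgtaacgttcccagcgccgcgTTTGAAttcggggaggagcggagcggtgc
CDC20: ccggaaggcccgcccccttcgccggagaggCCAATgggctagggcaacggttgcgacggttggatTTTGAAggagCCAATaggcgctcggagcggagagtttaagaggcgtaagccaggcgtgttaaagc
KIF20A: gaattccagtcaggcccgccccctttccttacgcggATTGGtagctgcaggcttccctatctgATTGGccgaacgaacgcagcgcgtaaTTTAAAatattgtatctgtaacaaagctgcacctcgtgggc
NUSAP1: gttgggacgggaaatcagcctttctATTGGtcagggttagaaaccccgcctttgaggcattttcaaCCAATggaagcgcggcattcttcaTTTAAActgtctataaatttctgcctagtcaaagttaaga
ASPM: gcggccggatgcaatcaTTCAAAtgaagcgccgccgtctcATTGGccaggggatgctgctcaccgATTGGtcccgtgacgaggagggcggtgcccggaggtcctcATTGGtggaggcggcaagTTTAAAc
KIF18A: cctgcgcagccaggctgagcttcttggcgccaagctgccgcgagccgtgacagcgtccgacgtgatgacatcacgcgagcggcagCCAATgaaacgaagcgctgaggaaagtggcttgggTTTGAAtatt
CENPI: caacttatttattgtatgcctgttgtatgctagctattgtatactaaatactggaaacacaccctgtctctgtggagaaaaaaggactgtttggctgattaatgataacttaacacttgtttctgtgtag
CDC25B: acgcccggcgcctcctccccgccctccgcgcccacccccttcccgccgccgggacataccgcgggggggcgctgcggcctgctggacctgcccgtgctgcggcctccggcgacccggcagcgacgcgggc

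These stretches lie at chr5:69167020-69167149 (plus strand), chr16:23678759-23678888 (plus), chr1:43358851-43358980 (plus), chr5:138178982-138179111 (plus), chr15:41332751-41332880 (plus), chr1:197146670-197146799 (minus), chr11:28108157-28108286 (minus), chrX:101100928-101101057 (plus) and chr20:3786821-3786950 (plus). A CHR hexamer was found in 42 of the 50 promoters (84%), against 24.3% of the 27305 first-listed promoters of the RefSeq table and 16% of the 9631 that belong to tested genes. The CCAAT box was found in 36 (72%), against 35.7% and 37%, and both motifs in 32 (64%), against 9.49% and 6.48%. The E2F core was found in 12 (24%), against 8.60% and 13.9%. TATAAA, searched the same way, was found in 3 (6%), against 12% of all promoters and 5.74% of those of tested genes, so its share was near that of the tested genes. A CHR hexamer began between 50 bases before and 10 bases after the start in 30 of 50 promoters (60%), against 5.61% of all and 3.45% of tested genes, a window set after the positions were seen. Among the members 2 CCAAT matches shared a base with a CHR match, and no E2F or TATAAA match did. The 8 genes with no hexamer at the first listed start were CCNA2, CDC25B, CDC25C, BUB1, CDCA5, CENPI, SPC24 and AURKB. Of the 8, 7 fell with FIDAS-5 and 6 with JQ1. The median log2 fold change of the 8 was -1.13 with FIDAS-5 and -0.75 with JQ1, beside -1.18 and -0.76 for the 42 genes with one. With any listed start counted, 44 of the 50 genes held a hexamer, against 27.9% of all genes, so some of the 8 hold one at another start. For CENPI and AURKB among the 8, and SMC2 and KIFC1 among the 42, the stretch searched lay wholly inside the annotated gene. A match is a run of letters and says nothing of whether a factor was bound.

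**Figure D1:**
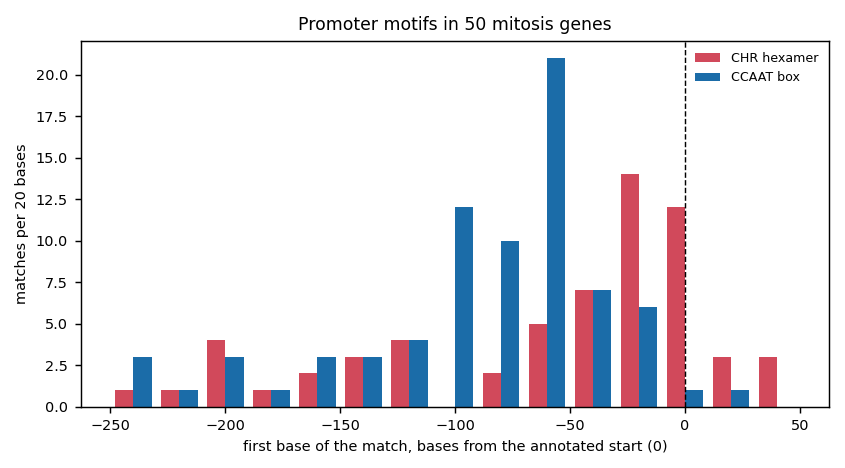
Histogram of the position of CHR hexamers (red) and CCAAT boxes (blue) in the promoters of 50 of the 58 genes, in bins of 20 bases. The x axis is the first base of the match in bases from the annotated start (0, dashed line) and the y axis the number of matches. The tallest CHR bars lie just before the start and the tallest CCAAT bar further upstream.

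All 12 hepatocyte markers passed the filter, and their levels summed to 5670 to 6553 TPM in vehicle libraries, 5126 to 7137 TPM after FIDAS-5 and 11390 to 15800 TPM after JQ1. Of the markers of other cells, 1 of 8 fibroblast, 1 of 6 endothelial and 3 of 8 leukocyte genes passed the filter. The leukocyte sum was 109.6 to 132 TPM in vehicle libraries, 238 to 293 TPM after FIDAS-5 and 14.4 to 20.3 TPM after JQ1, most of it LYZ. CD68 and CD14 also passed, with means in vehicle, FIDAS-5 and JQ1 of 3.71, 6.99 and 2.125 TPM for CD68 and 2.40, 1.98 and 1.93 TPM for CD14. PTPRC and CD3E had group means of at most 0.673 and 0.294 TPM. The endothelial sums were 6.61 to 9.91 TPM in vehicle, 15.4 to 16.6 TPM with FIDAS-5 and 1.39 to 1.69 TPM with JQ1, nearly all PECAM1, with CDH5 at 0 in every library. Fibroblast markers summed to at most 2.65 TPM in any library. LYZ, CD68 and PECAM1 moved with both compounds, and the hepatocyte sum rose with JQ1. The hepatocyte sums of FIDAS-5 and vehicle overlapped, and CD14 was called with neither compound (limma adjusted p = 0.368 and 0.241). The part of these markers in the results was not tested. TPM keeps no read counts, so depth and counting error are unknown. Genes with at least 1 TPM numbered 12229 to 13014 per library. Across genes, the departures of the third FIDAS-5 and the third JQ1 library from their groups were correlated (0.42), and both rose with the GC content of the transcripts (Spearman 0.55 and 0.64). The first FIDAS-5 and JQ1 libraries departed the other way (Spearman -0.51 and -0.65), with a correlation of 0.26 between them. The vehicle libraries also departed with GC content, with Spearman values of 0.38, -0.27 and -0.14 for replicates 1 to 3.

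In vehicle libraries the levels of the 58 genes spanned from 1.54 ± 0.274 TPM (SD, n = 3) for KIF14 to 170.1 ± 33.3 TPM for PTTG1, the securin gene. UBE2C stood next to it at 152 ± 28.1 TPM, within the spread of PTTG1, and TPX2 followed at 91.5 ± 11.2 TPM. CENPE and CENPF were low, at 2.39 ± 0.392 and 3.11 ± 0.614 TPM. Together the 58 genes held 1636, 1764 and 1768 TPM in the vehicle libraries, 891, 697 and 703 TPM with FIDAS-5 and 992, 919 and 703 TPM with JQ1. All 6 treated libraries lay below all 3 vehicle libraries. As a share of the TPM of protein-coding genes this was 0.555% ± 0.0173 (SD, n = 3) in vehicle, 0.254% ± 0.0133 under FIDAS-5 and 0.274% ± 0.0186 under JQ1.

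With FIDAS-5, 52 of the 58 genes fell and none rose by limma at an adjusted p under 0.05. Over all 13573 genes tested 7.60% fell and 12.6% rose. None of the 58 was higher at an unadjusted p under 0.05 either, against 19.1% of all genes. The median log2 fold change of the 58 genes was -1.18, from -1.61 (CCNA2) to -0.04 (CDC25B), beside -0.02 over all genes tested. Falls of at least 2-fold were called for 37 of the 58, against 2.62% of all genes, and the 3 FIDAS-5 libraries lay below the 3 vehicle libraries for 56 of them, against 18.4% of all genes. CDC25B and FOXM1 were the members whose libraries overlapped. Of the 52 falls 41 kept their call under every alternative setting in which the gene was tested, 20 settings for most and 19 for NUF2 and KIF15, which a filter at 5 TPM removed. A smaller share of cells in division and less of these RNAs in each dividing cell cannot be told apart in bulk RNA.

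With JQ1, 43 of the 58 genes fell and none rose by limma at an adjusted p under 0.05. The background was larger here: 19.4% of all genes tested fell and 19.0% rose. None of the 58 was higher at an unadjusted p under 0.05, against 23.6% of all genes. The median log2 fold change was -0.79, from -1.67 (CCNA2) to 0.20 (SMC4), beside -0.01 over all genes. Falls of at least 2-fold were called for 22 of the 58, against 7.43% of all genes. The JQ1 libraries lay below the vehicle libraries for 49, against 26.2% of all genes. Of the 43 falls 33 kept their call under every alternative in which the gene was tested, 19 for NUF2 and KIF14 and 20 for the others. KIF14 is among the 33, but it passed the filter through the vehicle libraries, where it is high. The calls were lower for both compounds in 41 genes, for FIDAS-5 alone in 11 and for JQ1 alone in CENPE and KIF14, while CDC25B, FOXM1, SMC4 and MKI67 were called with neither. The compounds share their vehicle libraries, so this overlap is not independent, and a call with 1 compound alone is no test of a difference between them. Of the 11 genes called with FIDAS-5 alone (CDK1, CENPF, CENPI, INCENP, KIF18A, KIFC1, NUSAP1, ASPM, ANLN, TOP2A and NCAPG), 7 were also called lower with JQ1 under median-of-ratios scaling and with protein-coding genes only. Those 7 were CDK1, KIFC1, NUSAP1, ASPM, ANLN, TOP2A and NCAPG. Without JQ1 replicate 1 alone, CDK1, ASPM, ANLN, TOP2A and NCAPG were called. Under both scalings KIF14, SMC4 and MKI67 were called lower with FIDAS-5.

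**Figure D2:**
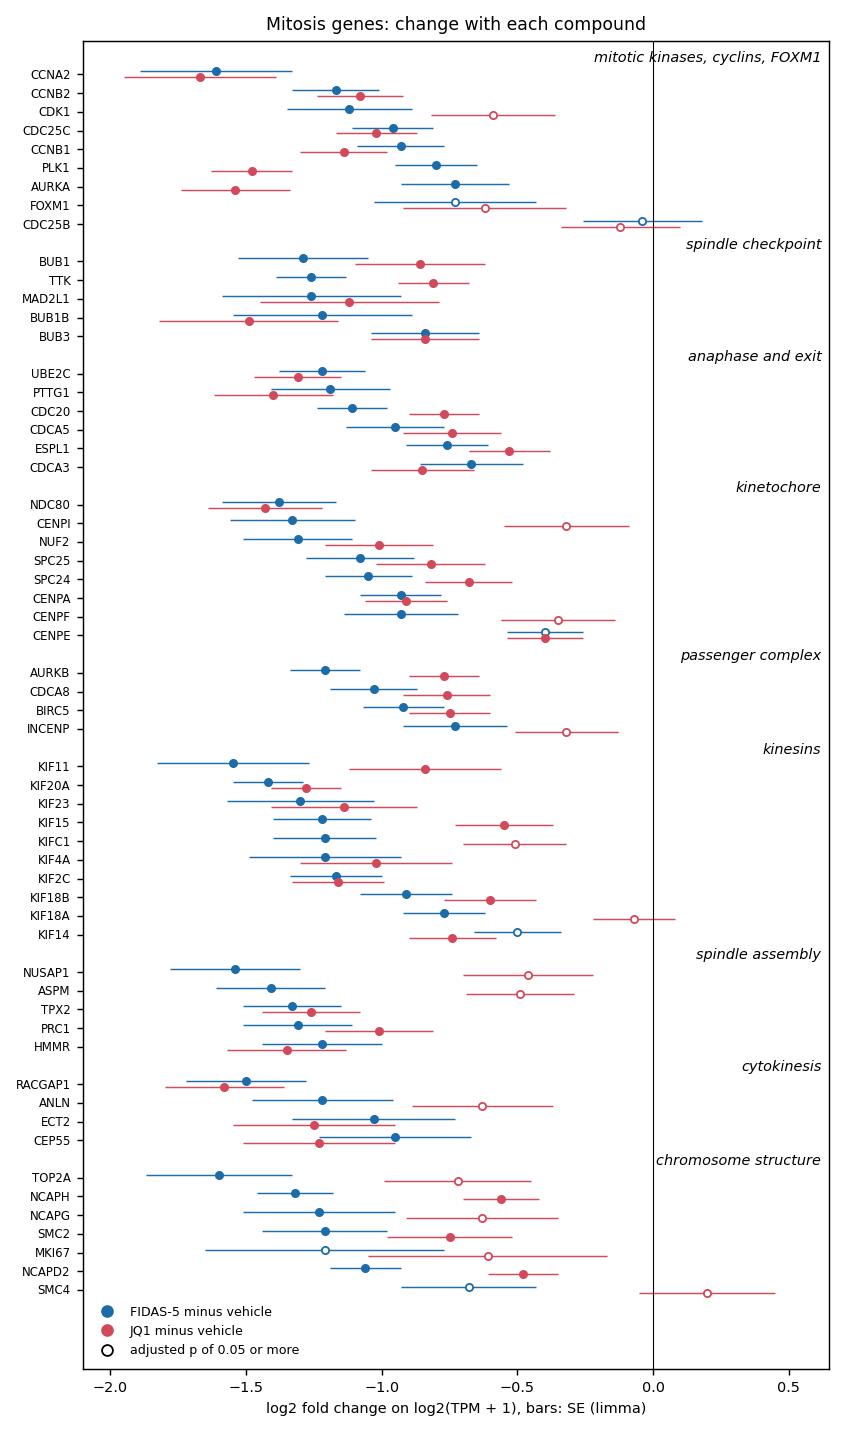
Log2 fold change of each of the 58 genes with FIDAS-5 (blue) and JQ1 (red) against vehicle, on log2(TPM + 1), grouped by role. Bars are standard errors from limma, and open circles mark an adjusted p of 0.05 or more. All FIDAS-5 points lie below 0, and with JQ1 only SMC4 lies above it.

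The drivers of entry into mitosis (kinases, cyclins, phosphatases and the transcription factor FOXM1) fell in 7 of 9 cases with FIDAS-5 and in 6 of 9 with JQ1. CCNA2, the cyclin A that acts in S phase and G2, was at 43.5, 44.5 and 42.9 TPM in the vehicle libraries, 17.5, 13.5 and 10.7 TPM in the FIDAS-5 libraries and 17.9, 15.4 and 7.84 TPM in the JQ1 libraries. The vehicle libraries were tight and both treated groups lay far below them, with log2 fold changes of -1.61 (SE 0.28, adjusted p = 0.00431) for FIDAS-5 and -1.67 (SE 0.28, adjusted p = 0.00177) for JQ1, the lowest of all 58 for either compound. CCNB1 (chromosome 5, 69167150 to 69178245), the main mitotic cyclin, was at 52.0, 69.1 and 68.9 TPM in the vehicle libraries, 34.2, 30.8 and 32.8 TPM in the FIDAS-5 libraries and 29.9, 31.5 and 23.1 TPM in the JQ1 libraries. Its groups did not overlap with vehicle, with changes of -0.93 (SE 0.16, adjusted p = 0.00472) and -1.14 (SE 0.16, adjusted p = 0.000838). CCNB2 changed by -1.17 and -1.08. CDK1 (chromosome 10, 60778331 to 60794852), the kinase these cyclins activate, was at 18.9, 26.7 and 23.2 TPM in the vehicle libraries, 12.2, 9.85 and 7.97 TPM in the FIDAS-5 libraries and 18.6, 15.96 and 10.8 TPM in the JQ1 libraries. It fell with FIDAS-5 by 1.12 (SE 0.23, adjusted p = 0.00895) on the log2 scale. With JQ1 every library lay under every vehicle library, but the log2 fold change of -0.59 was not called (adjusted p = 0.0698); it was called under 3 other scalings (adjusted p 0.00931 to 0.0137) and without JQ1 replicate 1 (0.0444).

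PLK1 (chromosome 16, 23678889 to 23690367), the Polo-like kinase, was at 46.5, 33.5 and 40.9 TPM in the vehicle libraries, 23.9, 20.3 and 23.8 TPM in the FIDAS-5 libraries and 12.2, 14.8 and 14.1 TPM in the JQ1 libraries. The 3 groups were separate, in the order vehicle, FIDAS-5, JQ1, with changes of -0.80 (SE 0.15, adjusted p = 0.00686) for FIDAS-5 and -1.48 (SE 0.15, adjusted p = 0.000146) for JQ1, and of -0.69 (SE 0.15, adjusted p = 0.00792) between the compounds. AURKA, the Aurora kinase of centrosomes and spindle poles, followed the same order at 31.7, 47.0 and 44.1 TPM in the vehicle libraries, 27.2, 21.6 and 23.1 TPM in the FIDAS-5 libraries and 15.6, 14.3 and 10.4 TPM in the JQ1 libraries. Its change was -1.54 (SE 0.20, adjusted p = 0.000490) with JQ1, -0.73 (SE 0.20, adjusted p = 0.0310) with FIDAS-5 and -0.80 (SE 0.20, adjusted p = 0.0134) between them. AURKA was no longer called with FIDAS-5 without vehicle replicate 2 or 3, without FIDAS-5 replicate 2 or 3 or without JQ1 replicate 2 (adjusted p up to 0.110), and the difference between the compounds was not called without FIDAS-5 replicate 3 and JQ1 replicate 3 together (adjusted p up to 0.0532). PLK1 and AURKA were the only members called lower with JQ1 than with FIDAS-5. CDC25C, a phosphatase that activates CDK1, fell by 0.96 and 1.02 on the log2 scale.

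Its relative CDC25B did not follow: it was at 43.6, 23.4 and 32.3 TPM in the vehicle libraries, 35.1, 25.0 and 34.4 TPM in the FIDAS-5 libraries and 30.0, 29.5 and 28.98 TPM in the JQ1 libraries. The spread of the vehicle libraries covered all treated libraries, and the log2 fold changes were -0.04 (SE 0.22, adjusted p = 0.920) and -0.12 (SE 0.22, adjusted p = 0.708). The FIDAS-5 value turned to 0.01 with median-of-ratios scaling and with protein-coding genes only, and to 0.17 and 0.11 without vehicle replicate 1 and FIDAS-5 replicate 2. The JQ1 value turned to 0.10 without vehicle replicate 1. FOXM1, the transcription factor that activates many genes of this group, was at 45.1, 17.1 and 29.6 TPM in the vehicle libraries, 19.6, 13.6 and 17.4 TPM in the FIDAS-5 libraries and 17.8, 18.6 and 18.3 TPM in the JQ1 libraries. Vehicle replicate 2 was as low as the treated libraries, and the log2 fold changes of -0.73 (SE 0.30, adjusted p = 0.119) and -0.62 (SE 0.30, adjusted p = 0.132) were not called. Without vehicle replicate 2 they were -1.08 (adjusted p = 0.0133) and -0.97 (adjusted p = 0.0112). Vehicle replicate 1 was the highest library, and without it the FIDAS-5 fall was smaller than in the main fit and not called. Removing the GC trend gave -0.87 with FIDAS-5 (adjusted p = 0.0482). Under no other setting was FOXM1 called against vehicle with either compound. Its call thus depended on leaving out vehicle replicate 2 or, with FIDAS-5, on removing the GC trend.

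**Figure D3:**
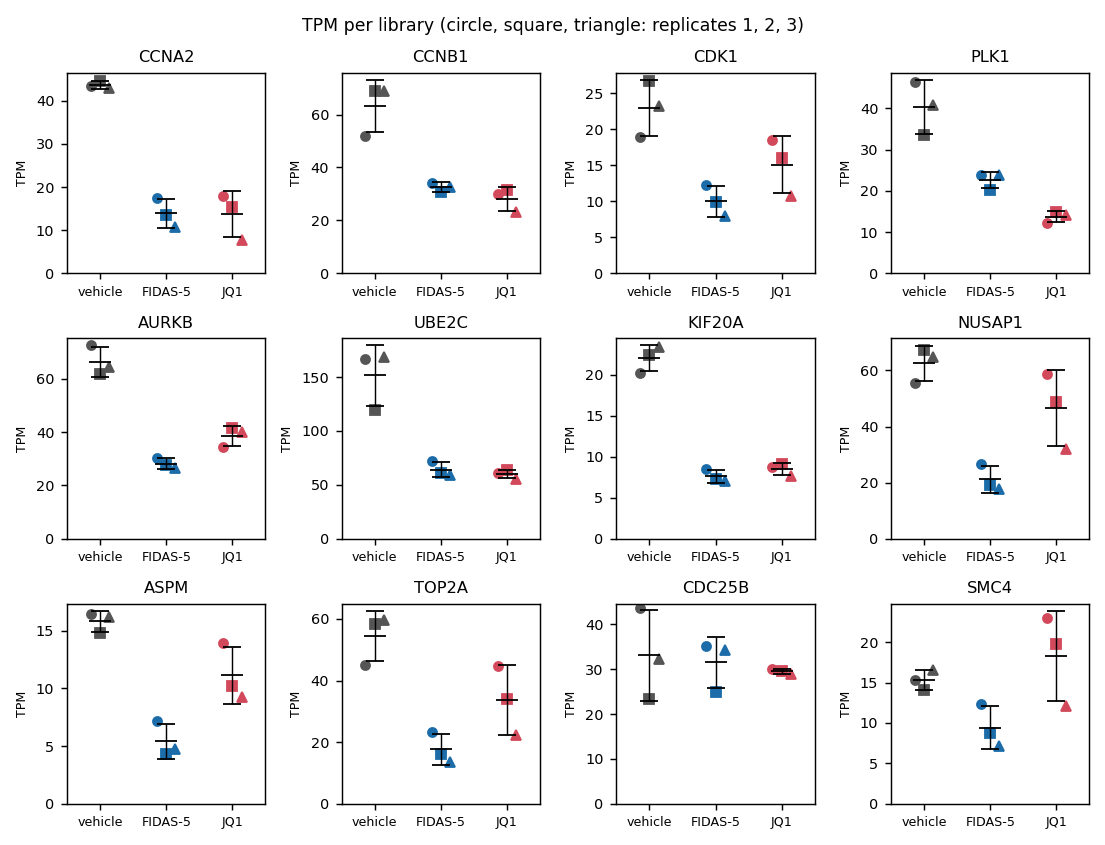
TPM of 12 of the genes in each of the 9 libraries, with linear y axes that start at 0. Circles, squares and triangles are replicates 1, 2 and 3, and black bars give the mean and SD (n = 3). CCNA2, UBE2C and KIF20A drop alike with both compounds, NUSAP1, ASPM and TOP2A drop further with FIDAS-5, PLK1 drops further with JQ1, and CDC25B overlaps in all groups.

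All 5 genes of the spindle checkpoint fell with both compounds, with medians of -1.26 and -0.86. TTK, the kinase that starts checkpoint signalling, was at 15.9, 18.3 and 16.7 TPM in the vehicle libraries, 6.94, 6.77 and 5.90 TPM in the FIDAS-5 libraries and 10.3, 9.35 and 8.18 TPM in the JQ1 libraries. The 3 groups did not overlap, and the changes were -1.26 (SE 0.13, adjusted p = 0.000311), -0.81 (SE 0.13, adjusted p = 0.00139) and, between the compounds, 0.45 (SE 0.13, adjusted p = 0.0257). BUB1, a kinase of the kinetochore, was at 17.7, 22.9 and 22.8 TPM in the vehicle libraries, 9.76, 8.18 and 6.41 TPM in the FIDAS-5 libraries and 14.2, 12.9 and 7.46 TPM in the JQ1 libraries. Its change was -1.29 (SE 0.24, adjusted p = 0.00625) with FIDAS-5 and -0.86 (SE 0.24, adjusted p = 0.0208) with JQ1. BUB1B, a subunit of the complex that inhibits CDC20, was at 19.6, 28.9 and 24.6 TPM in the vehicle libraries, 13.6, 9.66 and 6.99 TPM in the FIDAS-5 libraries and 10.7, 10.2 and 4.43 TPM in the JQ1 libraries. JQ1 replicate 3 was lowest of all, and the changes were -1.22 (SE 0.33, adjusted p = 0.0305) and -1.49 (SE 0.33, adjusted p = 0.00713). BUB3, which brings both BUB proteins to kinetochores, was the most abundant of the 5 at 61.1, 63.9 and 71.3 TPM in the vehicle libraries, 43.1, 32.0 and 33.9 TPM in the FIDAS-5 libraries and 44.1, 39.7 and 26.5 TPM in the JQ1 libraries. Of the 5 it fell least with FIDAS-5, by 0.84 (SE 0.20, adjusted p = 0.0186), and by 0.84 (SE 0.20, adjusted p = 0.0103) with JQ1. MAD2L1, which binds CDC20, changed by -1.26 and -1.12.

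Several of these calls did not hold without single libraries. BUB1B was not called with FIDAS-5 without vehicle replicate 2 or 3, without FIDAS-5 replicate 2 or 3 or with no filter on low values (adjusted p up to 0.108). BUB3 was not called with FIDAS-5 without vehicle replicate 3 or without FIDAS-5 replicate 2 or 3 (adjusted p up to 0.0750). MAD2L1 was not called with FIDAS-5 without vehicle replicate 1, 2 or 3, without FIDAS-5 replicate 2 or 3 or with no filter on low values (adjusted p up to 0.0974), nor with JQ1 without vehicle replicate 1, 2 or 3 or with no filter on low values (adjusted p up to 0.0889). BUB1 was not called with JQ1 without vehicle replicate 2 or 3 (adjusted p up to 0.0709). TTK was not called between the compounds without FIDAS-5 replicate 2 or 3 or without JQ1 replicate 1 or 2 (adjusted p up to 0.0994).

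The 6 genes grouped here under anaphase onset and mitotic exit all fell with each compound, and none was called different between the compounds. UBE2C, the ubiquitin-conjugating enzyme of APC/C, was at 167, 119 and 168 TPM in the vehicle libraries, 72.3, 60.7 and 59.5 TPM in the FIDAS-5 libraries and 61.2, 63.3 and 55.6 TPM in the JQ1 libraries. Every treated library was at most 72.3 TPM and every vehicle library at least 119 TPM, with changes of -1.22 (SE 0.16, adjusted p = 0.00129) and -1.31 (SE 0.16, adjusted p = 0.000412). PTTG1, securin, the inhibitor of separase, was at 138, 205 and 167 TPM in the vehicle libraries, 80.2, 79.0 and 62.0 TPM in the FIDAS-5 libraries and 73.5, 72.4 and 47.1 TPM in the JQ1 libraries. The groups were again separate, with -1.19 (SE 0.22, adjusted p = 0.00569) and -1.40 (SE 0.22, adjusted p = 0.00127). PTTG1 has near-identical copies elsewhere in the genome, so its reads can be shared out among them and its level is uncertain. CDC20, the activator of APC/C, changed by -1.11 (SE 0.13, adjusted p = 0.000739) with FIDAS-5 and -0.77 (SE 0.13, adjusted p = 0.00227) with JQ1.

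ESPL1, separase, was at 9.92, 6.76 and 7.73 TPM in the vehicle libraries, 4.87, 3.71 and 4.47 TPM in the FIDAS-5 libraries and 5.37, 5.32 and 5.09 TPM in the JQ1 libraries. Its levels were low and its changes were -0.76 (SE 0.15, adjusted p = 0.00854) and -0.53 (SE 0.15, adjusted p = 0.0234), the smaller of which was not called without vehicle replicate 1 or 3, without JQ1 replicate 1 or 2 or without FIDAS-5 replicate 3 and JQ1 replicate 3 together (adjusted p up to 0.0643). CDCA5, sororin, which protects cohesin, changed by -0.95 and -0.74. CDCA3 is in this group by the grouping used here, which is no statement of its function. It was at 16.1, 10.1 and 16.4 TPM in the vehicle libraries, 8.74, 7.18 and 9.19 TPM in the FIDAS-5 libraries and 6.43, 7.66 and 7.84 TPM in the JQ1 libraries. It changed by -0.67 (SE 0.19, adjusted p = 0.0386) and -0.85 (SE 0.19, adjusted p = 0.00830). CDCA3 was not called with FIDAS-5 without vehicle replicate 1 or 3, without FIDAS-5 replicate 1, 2 or 3, without JQ1 replicate 2 or under 4 of the other settings (adjusted p up to 0.139).

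Of 8 kinetochore genes 7 fell with FIDAS-5 and 6 with JQ1. The NDC80 complex, the main microtubule attachment of the kinetochore, fell as a whole. NDC80 was at 12.4, 15.1 and 14.9 TPM in the vehicle libraries, 5.83, 4.77 and 3.95 TPM in the FIDAS-5 libraries and 5.83, 5.30 and 3.10 TPM in the JQ1 libraries. Its changes of -1.38 (SE 0.21, adjusted p = 0.00243) and -1.43 (SE 0.21, adjusted p = 0.000981) were the largest falls of the 8 genes for each compound. NUF2 changed by -1.31 and -1.01, SPC24 by -1.05 and -0.68, and SPC25 by -1.08 and -0.82. In vehicle NUF2 stood at 4.61 ± 0.892 TPM, below its partners NDC80 (14.1 ± 1.47), SPC24 (15.1 ± 1.84) and SPC25 (15.6 ± 3.66), which did not differ beyond their spread. CENPA, the histone H3 variant of centromeres, changed by -0.93 and -0.91.

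CENPI, part of the inner kinetochore, separated the compounds: it was at 8.64, 8.23 and 8.76 TPM in the vehicle libraries, 3.92, 2.42 and 2.25 TPM in the FIDAS-5 libraries and 8.65, 7.33 and 4.51 TPM in the JQ1 libraries. The FIDAS-5 libraries lay below all others, while JQ1 replicate 1 was at the level of vehicle. It fell with FIDAS-5 (-1.33, SE 0.23, adjusted p = 0.00418), while the JQ1 value was -0.32 (SE 0.23, adjusted p = 0.301), a difference of 1.01 (SE 0.23, adjusted p = 0.00908). CENPF, a large protein of the outer kinetochore, had log2 fold changes of -0.93 (SE 0.21, adjusted p = 0.0155) and -0.35 (SE 0.21, adjusted p = 0.228), and the difference of 0.58 was not called (adjusted p = 0.0641). CENPF was not called with FIDAS-5 without vehicle replicate 3 or without FIDAS-5 replicate 2 or 3 (adjusted p up to 0.0634). CENPE, a kinesin of kinetochores, was at 1.96, 2.73 and 2.47 TPM in the vehicle libraries, 1.89, 1.37 and 1.45 TPM in the FIDAS-5 libraries and 1.75, 1.44 and 1.48 TPM in the JQ1 libraries. Its log2 fold changes were -0.40 (SE 0.14, adjusted p = 0.0766) with FIDAS-5, not called, and -0.40 (SE 0.14, adjusted p = 0.0473) with JQ1. Without vehicle replicate 1 the FIDAS-5 value was called (adjusted p = 0.0443). CENPE was not called with JQ1 without vehicle replicate 2 or 3, without FIDAS-5 replicate 2 or 3, without JQ1 replicate 1, 2 or 3 or under 4 of the other settings (adjusted p up to 0.358).

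The chromosomal passenger complex, which corrects faulty attachments, fell in all 4 subunits with FIDAS-5 and in 3 of 4 with JQ1. AURKB (chromosome 17, 8204731 to 8210575), its kinase, was at 72.9, 61.8 and 64.5 TPM in the vehicle libraries, 30.4, 27.5 and 26.6 TPM in the FIDAS-5 libraries and 34.4, 41.5 and 40.0 TPM in the JQ1 libraries. The 3 groups did not overlap, and FIDAS-5 was lowest where AURKA had JQ1 lowest. The changes were -1.21 (SE 0.13, adjusted p = 0.000384), -0.77 (SE 0.13, adjusted p = 0.00184) and, between the compounds, 0.44 (SE 0.13, adjusted p = 0.0275). AURKB was not called between the compounds without FIDAS-5 replicate 2 or 3, without JQ1 replicate 2 or 3 or under 3 of the other settings (adjusted p up to 0.128). INCENP, the scaffold, was at 13.4, 11.7 and 10.3 TPM in the vehicle libraries, 8.27, 4.98 and 7.11 TPM in the FIDAS-5 libraries and 10.2, 9.66 and 7.86 TPM in the JQ1 libraries. JQ1 replicate 1 lay just under the lowest vehicle library, and the log2 fold changes were -0.73 (SE 0.19, adjusted p = 0.0248) and -0.32 (SE 0.19, adjusted p = 0.206). INCENP was not called with FIDAS-5 without vehicle replicate 1 or 2 or without FIDAS-5 replicate 2 or 3 (adjusted p up to 0.0676). BIRC5, survivin, changed by -0.92 and -0.75, and CDCA8, borealin, by -1.03 and -0.76.

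Of 10 kinesins, the motors that build the spindle and move chromosomes, 9 fell with FIDAS-5 and 8 with JQ1. KIF20A (chromosome 5, 138179112 to 138187723), a motor of the midzone, was at 20.2, 22.4 and 23.3 TPM in the vehicle libraries, 8.44, 7.29 and 6.99 TPM in the FIDAS-5 libraries and 8.78, 9.07 and 7.63 TPM in the JQ1 libraries. Spread within each group was small, and its changes of -1.42 (SE 0.13, adjusted p = 0.000145) and -1.28 (SE 0.13, adjusted p = 0.000124) had the smallest adjusted p of the 58 genes in each comparison with vehicle. KIF11, the motor that pushes spindle poles apart, was at 10.8, 10.4 and 12.4 TPM in the vehicle libraries, 4.49, 2.98 and 2.30 TPM in the FIDAS-5 libraries and 8.27, 6.59 and 3.43 TPM in the JQ1 libraries. It fell furthest among the kinesins with FIDAS-5, -1.55 (SE 0.28, adjusted p = 0.00538), and by less, -0.84 (SE 0.28, adjusted p = 0.0418), with JQ1, though the difference of 0.70 was not called (adjusted p = 0.0834). KIF11 was not called with JQ1 without vehicle replicate 1, 2 or 3, without FIDAS-5 replicate 2, without JQ1 replicate 2 or 3 or under 4 of the other settings (adjusted p up to 0.121). KIF18A, which limits chromosome movement at the metaphase plate, was at 6.28, 6.51 and 6.63 TPM in the vehicle libraries, 4.35, 3.03 and 2.95 TPM in the FIDAS-5 libraries and 6.89, 5.48 and 6.02 TPM in the JQ1 libraries. JQ1 libraries overlapped with vehicle and the FIDAS-5 libraries lay below both, with -0.77 (SE 0.15, adjusted p = 0.00752), -0.07 (SE 0.15, adjusted p = 0.730) and a difference of 0.69 (SE 0.15, adjusted p = 0.00687). With the GC trend removed the JQ1 value of KIF18A was 0.11, also not called.

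KIF15, which can share the work of KIF11, and KIFC1, a motor toward the minus end, also differed between the compounds, by 0.67 (SE 0.18, adjusted p = 0.0202) and 0.70 (SE 0.19, adjusted p = 0.0206). With FIDAS-5 they fell, at -1.22 and -1.21, and with JQ1 the values were -0.55 (adjusted p = 0.0419) and -0.51 (adjusted p = 0.0660). KIF15 was not called between the compounds without FIDAS-5 replicate 2 or 3 or without JQ1 replicate 1 or 2 (adjusted p up to 0.0727), nor with JQ1 without vehicle replicate 2 or 3, without FIDAS-5 replicate 2 or 3, without JQ1 replicate 2 or 3 or under 5 of the other settings (adjusted p up to 0.130). KIFC1 was not called between the compounds without FIDAS-5 replicate 2 or without JQ1 replicate 1 or 2 (adjusted p up to 0.0745). KIF14, a motor of cytokinesis, was at 1.69, 1.22 and 1.70 TPM in the vehicle libraries, 1.15, 0.649 and 0.601 TPM in the FIDAS-5 libraries and 0.607, 0.602 and 0.347 TPM in the JQ1 libraries. It was called with JQ1, at -0.74 (SE 0.16, adjusted p = 0.00635), and not with FIDAS-5, at -0.50 (SE 0.16, adjusted p = 0.0567). The difference of -0.24 was not called (adjusted p = 0.284). Only the vehicle libraries and FIDAS-5 replicate 1 reached 1 TPM, so KIF14 passed the filter through the vehicle group, where it is high. Its falls are therefore not independent of the filter. The depolymerase KIF2C changed by -1.17 and -1.16, the midzone motor KIF23 by -1.30 and -1.14, the chromosome motor KIF4A by -1.21 and -1.02 and KIF18B by -0.91 and -0.60. KIF4A was not called with FIDAS-5 without vehicle replicate 2 or 3 or without FIDAS-5 replicate 2 or 3 (adjusted p up to 0.0621), nor with JQ1 without vehicle replicate 2 or 3 (adjusted p up to 0.0695). KIF18B was not called with JQ1 without vehicle replicate 1, without JQ1 replicate 2 or 3 or without FIDAS-5 replicate 3 and JQ1 replicate 3 together (adjusted p up to 0.0645).

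The 5 spindle assembly genes all fell with FIDAS-5 and 3 fell with JQ1. NUSAP1, which bundles microtubules around chromosomes, showed the largest difference between the compounds among the 58 genes. It was at 55.5, 67.4 and 64.7 TPM in the vehicle libraries, 26.8, 19.1 and 17.6 TPM in the FIDAS-5 libraries and 58.9, 48.8 and 31.9 TPM in the JQ1 libraries. JQ1 replicate 1 lay within the vehicle range, and the FIDAS-5 libraries lay below all others. The log2 fold changes were -1.54 (SE 0.24, adjusted p = 0.00254) with FIDAS-5, -0.46 (SE 0.24, adjusted p = 0.163) with JQ1 and 1.08 (SE 0.24, adjusted p = 0.00779) between them. ASPM, a protein of spindle poles, had the same order at 16.4, 14.8 and 16.2 TPM in the vehicle libraries, 7.15, 4.30 and 4.79 TPM in the FIDAS-5 libraries and 13.9, 10.2 and 9.29 TPM in the JQ1 libraries. Its log2 fold changes were -1.41 (SE 0.20, adjusted p = 0.00151), -0.49 (SE 0.20, adjusted p = 0.0824) and 0.93 (SE 0.20, adjusted p = 0.00648). HMMR, another spindle pole protein, was at 10.8, 14.3 and 12.04 TPM in the vehicle libraries, 6.25, 4.53 and 3.67 TPM in the FIDAS-5 libraries and 5.55, 4.27 and 3.11 TPM in the JQ1 libraries. Here the compounds stood close, with -1.22 (SE 0.22, adjusted p = 0.00504) and -1.35 (SE 0.22, adjusted p = 0.00152). TPX2, the activator of AURKA, changed by -1.33 and -1.26, and PRC1, which links antiparallel microtubules, by -1.31 and -1.01.

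All 4 cytokinesis genes fell with FIDAS-5 and 3 with JQ1. RACGAP1, which forms centralspindlin with KIF23, was at 41.9, 68.2 and 54.8 TPM in the vehicle libraries, 21.0, 17.8 and 16.7 TPM in the FIDAS-5 libraries and 20.1, 19.8 and 13.2 TPM in the JQ1 libraries. Both treated groups lay at or below 21.0 TPM, with -1.50 (SE 0.22, adjusted p = 0.00191) and -1.58 (SE 0.22, adjusted p = 0.000706). ANLN, anillin, a scaffold of the contractile ring, was at 23.5, 23.6 and 26.2 TPM in the vehicle libraries, 13.9, 9.08 and 7.69 TPM in the FIDAS-5 libraries and 20.5, 17.2 and 10.4 TPM in the JQ1 libraries. JQ1 replicate 1 came near the vehicle range, and the log2 fold changes were -1.22 (SE 0.26, adjusted p = 0.0118) and, not called, -0.63 (SE 0.26, adjusted p = 0.0910). CEP55, which recruits the abscission machinery, was at 12.6, 12.1 and 12.8 TPM in the vehicle libraries, 8.55, 5.78 and 4.24 TPM in the FIDAS-5 libraries and 7.43, 4.58 and 3.04 TPM in the JQ1 libraries. It changed by -0.95 (SE 0.28, adjusted p = 0.0454) and -1.23 (SE 0.28, adjusted p = 0.00888). ECT2, the exchange factor that activates RhoA at the midzone, changed by -1.03 and -1.25. CEP55 was not called with FIDAS-5 without vehicle replicate 1, 2 or 3, without FIDAS-5 replicate 2 or 3, without JQ1 replicate 2 or under 3 of the other settings (adjusted p up to 0.152). ECT2 was not called with FIDAS-5 without vehicle replicate 1, 2 or 3, without FIDAS-5 replicate 2 or 3, without JQ1 replicate 2 or under 2 of the other settings (adjusted p up to 0.136).

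Among the 7 genes of chromosome structure 5 fell with FIDAS-5 and 3 with JQ1, the median difference between the compounds was 0.61, and 4 were called higher with JQ1 than with FIDAS-5. TOP2A (chromosome 17, 40388525 to 40417896), the topoisomerase that untangles sister chromatids, was at 45.1, 58.3 and 59.7 TPM in the vehicle libraries, 23.3, 15.99 and 13.6 TPM in the FIDAS-5 libraries and 44.8, 34.1 and 22.3 TPM in the JQ1 libraries. JQ1 replicate 1 reached the lowest vehicle library to within 1 TPM, and JQ1 replicate 3 overlapped with FIDAS-5. The log2 fold changes were -1.60 (SE 0.27, adjusted p = 0.00406), -0.72 (SE 0.27, adjusted p = 0.0677) and 0.88 (SE 0.27, adjusted p = 0.0348). TOP2A was not called between the compounds without vehicle replicate 3, without FIDAS-5 replicate 2 or 3, without JQ1 replicate 1 or 2 or under 2 of the other settings (adjusted p up to 0.115).

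Condensin I, which compacts chromosomes, has the subunits SMC2, SMC4, NCAPD2, NCAPG and NCAPH. SMC4 was at 15.3, 14.1 and 16.5 TPM in the vehicle libraries, 12.4, 8.71 and 7.15 TPM in the FIDAS-5 libraries and 23.0, 19.8 and 12.1 TPM in the JQ1 libraries. JQ1 replicates 1 and 2 lay above every vehicle library and replicate 3 below, and the log2 fold changes were -0.68 (SE 0.25, adjusted p = 0.0929), 0.20 (SE 0.25, adjusted p = 0.557) and 0.88 (SE 0.25, adjusted p = 0.0243) between the compounds. SMC4 was not called between the compounds without FIDAS-5 replicate 2 or 3, without JQ1 replicate 1 or 2 or in a fit of only the 6 libraries compared (adjusted p up to 0.0850). NCAPH was at 10.3, 11.2 and 11.2 TPM in the vehicle libraries, 4.18, 3.30 and 3.83 TPM in the FIDAS-5 libraries and 7.90, 7.52 and 5.91 TPM in the JQ1 libraries. All 3 groups were separate, with JQ1 between vehicle and FIDAS-5, and the changes were -1.32 (SE 0.14, adjusted p = 0.000345), -0.56 (SE 0.14, adjusted p = 0.0119) and 0.76 (SE 0.14, adjusted p = 0.00292), the smallest adjusted p between the compounds. NCAPD2 showed the same order, with -1.06, -0.48 and 0.57 (SE 0.13, adjusted p = 0.00859). SMC2, the partner of SMC4, was at 5.60, 5.56 and 5.24 TPM in the vehicle libraries, 2.62, 1.42 and 1.47 TPM in the FIDAS-5 libraries and 4.03, 2.99 and 1.85 TPM in the JQ1 libraries. It changed by -1.21 (SE 0.23, adjusted p = 0.00634) and -0.75 (SE 0.23, adjusted p = 0.0295). NCAPG had values of -1.23 with FIDAS-5 and -0.63 with JQ1 (adjusted p = 0.107). SMC2 was not called with JQ1 without vehicle replicate 1, 2 or 3, without JQ1 replicate 2 or 3 or under 2 of the other settings (adjusted p up to 0.0742). NCAPG was not called with FIDAS-5 without vehicle replicate 3 or without FIDAS-5 replicate 2 or 3 (adjusted p up to 0.0598). NCAPD2 was not called with JQ1 without JQ1 replicate 2 (adjusted p up to 0.0589).

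MKI67, which encodes the proliferation marker Ki-67, a coat of mitotic chromosomes, was at 23.6, 14.4 and 24.6 TPM in the vehicle libraries, 13.9, 6.995 and 5.62 TPM in the FIDAS-5 libraries and 20.6, 16.4 and 6.29 TPM in the JQ1 libraries. The FIDAS-5 libraries lay under the vehicle libraries, though FIDAS-5 replicate 1 came within 1 TPM of vehicle replicate 2, and the JQ1 libraries ran from the FIDAS-5 level to the vehicle level. The log2 fold changes of -1.21 (SE 0.44, adjusted p = 0.0900) and -0.61 (SE 0.44, adjusted p = 0.310) were not called. The FIDAS-5 value was called under 6 of the 20 alternatives, such as without JQ1 replicate 3 (adjusted p = 0.0263), and the JQ1 value under none.

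Between the compounds, 12 of the 58 genes were called higher with JQ1 than with FIDAS-5, against 16.4% of all genes, a share (20.7%) near the background. Only 2 were called lower, AURKA and PLK1, against 18.5% of all genes. The median difference was 0.22, from -0.80 (AURKA) to 1.08 (NUSAP1), beside 0.05 over all genes. The 12 were TTK, CENPI, AURKB, KIF15, KIF18A, KIFC1, NUSAP1, ASPM, TOP2A, NCAPD2, NCAPH and SMC4. Calls for PLK1, CENPI, KIF18A, NUSAP1, ASPM, NCAPD2 and NCAPH held under all 20 alternatives. The count depended on the libraries: 8 genes were called in all without FIDAS-5 replicate 2 or JQ1 replicate 2, 9 without FIDAS-5 replicate 3 or JQ1 replicate 1, and 21 without JQ1 replicate 3. It was 22 with quantile normalization. For the other 44 genes a difference was not shown, which does not show that the compounds act alike, and the doses were not matched.

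**Figure D4:**
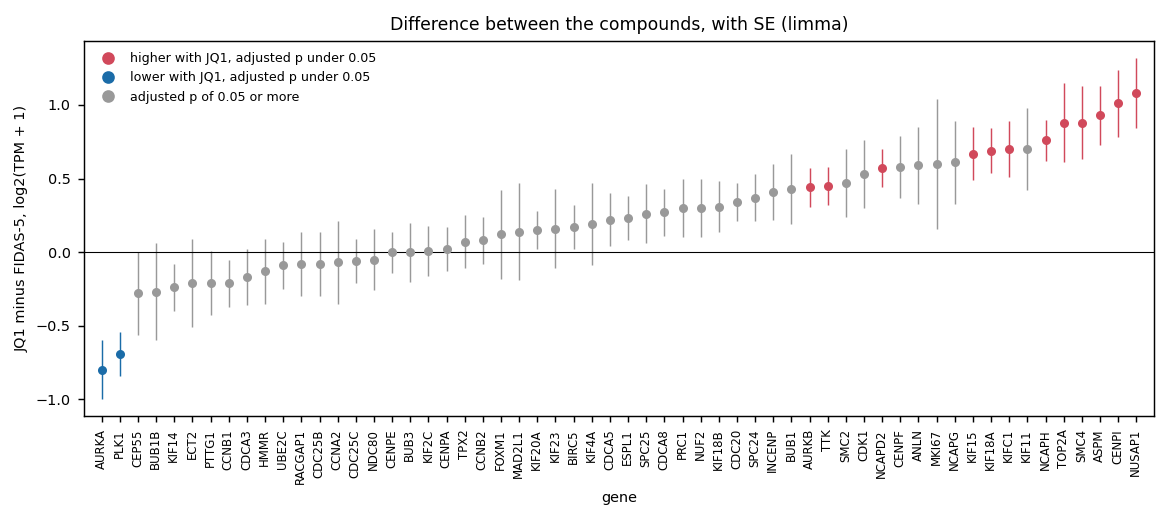
Difference JQ1 minus FIDAS-5 on log2(TPM + 1) for each of the 58 genes, in order of size, with standard errors from limma. Red marks 12 genes higher and blue 2 genes lower with JQ1 at an adjusted p under 0.05, with AURKA and PLK1 at the left end and NUSAP1 at the right.

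The median of their departures from the vehicle mean was -0.90, -1.25 and -1.31 on the log2 scale in FIDAS-5 replicates 1 to 3, and -0.62, -0.74 and -1.14 in JQ1 replicates 1 to 3. JQ1 replicate 3 held the lowest of the JQ1 values for 48 of the 58 genes and JQ1 replicate 1 the highest for 46. FIDAS-5 replicate 1 held the highest FIDAS-5 value for 52, and vehicle replicate 1 the lowest vehicle value for 33. Protein-coding genes held 34.0, 33.5 and 27.6% of the TPM in the JQ1 libraries, 33.1, 28.6 and 28.3% in the FIDAS-5 libraries and 30.3, 32.1 and 30.8% in the vehicle libraries. The fits that scaled for this (protein-coding genes only, median-of-ratios, quantile) called 54 to 56 members lower with FIDAS-5 and 49 or 50 with JQ1. The share of all genes called in these fits is not given here, so the added calls are not read as a result about the 58 genes. Without FIDAS-5 replicate 3 and JQ1 replicate 3 together the counts were 50 and 37, with medians of -1.07 and -0.68.

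**Figure D5:**
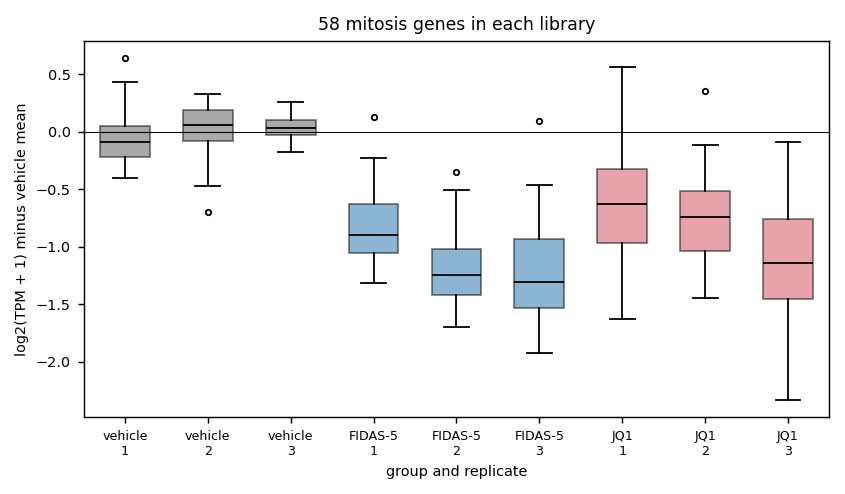
Departure of each of the 58 genes from its vehicle mean, on log2(TPM + 1), in each library. Boxes span the quartiles with the median as a line, whiskers reach the last point within 1.5 box lengths, and circles are points beyond. The FIDAS-5 medians run from -0.90 to -1.31 and the JQ1 medians from -0.62 to -1.14, all below the vehicle libraries.

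Transcripts of the 58 genes had a median GC content of 45.5%, beside 49.4% over 13042 tested genes with a value, and the fold changes of all these genes rose with GC content (Spearman 0.37 across genes for FIDAS-5 and 0.21 for JQ1). Among the 58, the 40 below the median of all genes had a median change of -1.22 with FIDAS-5 and the 18 above it -0.99, while all genes below and above that median had -0.17 and 0.16. With JQ1 these values were -0.85 and -0.74, beside -0.13 and 0.14. Removal of the GC trend left 53 of 58 called lower with FIDAS-5 (median -1.07) and 44 with JQ1 (median -0.82), with no share of all genes beside these counts. For 31 of the 58 genes another annotated gene overlaps the locus, such as CDC23 at KIF20A, ERN2 at PLK1, EXOSC9 at CCNA2, the readthrough gene BUB1B-PAK6 at BUB1B and microRNA genes at SMC4. The sources used here do not say whether strand was used, so reads from overlapping parts cannot be assigned with certainty.

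Beyond the 58, of 136 further genes of chromosome segregation and its regulation, all of which passed the filter, 62 fell (45.6%, against 7.60% of all genes) and 2 rose (against 12.6%) with FIDAS-5 (median -0.67). With JQ1, 59 fell (43.4%, against 19.4%) and 6 rose (against 19.0%), with a median of -0.45. The lists below are read against the same background shares. Among 28 other spindle genes 20 fell with FIDAS-5 and 16 with JQ1, including the chromosome motor KIF22 (-1.35 and -1.81). Among 32 other kinetochore and checkpoint genes 19 and 18 fell, including SKA3, a microtubule-binding subunit (-1.52 and -1.33), and TRIP13, a remodeller of MAD2 (-1.25 and -1.61). Among 17 APC/C subunits and regulators 3 fell with FIDAS-5 (17.6%) and 6 with JQ1 (35.3%), and ANAPC2, the cullin subunit, rose with JQ1 (0.71). Cohesin and its regulators fell in 4 of 15 cases with FIDAS-5 (26.7%) and in 3 with JQ1 (20%, near the 19.4% of all genes). SGO1, the protector of centromeric cohesin, was called with both (-1.33 and -1.32). Of 10 other cytokinesis genes 1 fell with FIDAS-5 (CIT, citron kinase, -0.81), a share near the 7.60% of all genes, and none was called lower with JQ1. MYH9, the heavy chain of non-muscle myosin IIA, rose with FIDAS-5 (0.78, adjusted p = 0.0360) and JQ1 (1.96, adjusted p = 0.000227).

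The 136 further genes include 16 of DREAM, MuvB and the E2F factors, so these are not a separate set. Of the 16, 8 fell with FIDAS-5 (50%, against 7.60% of all genes) and 9 with JQ1 (56.2%, against 19.4%), and none was called higher with either. MYBL2, the activating partner of MuvB, fell from 29.8 ± 4.88 TPM (SD, n = 3) to 13.3 ± 0.344 TPM with FIDAS-5 (log2 fold change -1.10, adjusted p = 0.000954) and 16.8 ± 0.769 TPM with JQ1 (-0.78, adjusted p = 0.00258). The MuvB subunit LIN9 changed by -0.97 and -1.25 and the activator E2F2 by -0.98 and -1.30. As a comparison from the earlier part of the cycle, 37 of 46 DNA replication genes fell with FIDAS-5 (80.4%, against 7.60%, median -0.96) and 24 with JQ1 (52.2%, against 19.4%, median -0.66). Between the compounds 14 of the 46 were higher (30.4%, against 16.4%) and 2 lower (4.35%, against 18.5%) with JQ1. No difference between the replication and mitosis genes was tested.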

How the data were processed

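The authors deposited a TPM for each gene symbol. Salmon and hg38 are the tool and build that the submitters' processing notes name; version, annotation and strand setting are not given in the sources used here. TPM keeps no counts, so depth is unknown. Values were taken as log2(TPM + 1), which understates changes of genes at a few TPM. Genes with at least 1 TPM in 3 of 9 libraries (13573) were fitted with limma 3.58.1 in R 4.3.3, with 1 mean per group over all 9 libraries (6 residual and 2.86 prior degrees of freedom). Tests were two-sided, with Benjamini-Hochberg adjustment over all genes and a threshold of 0.05. The method was also run on simulated data with independent noise for each gene. Those data lack the departures shared across genes in the real libraries, so that run says nothing of their effect on the calls. Alternatives were pseudocount, filter, scaling, moderation, samples in the fit, replicate block, GC trend and leaving out each library. GC content came from GENCODE 29 transcripts, and coordinates, overlaps and promoters from RefSeq (GRCh38.p14). Figures were drawn with matplotlib 3.10.9.

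The 58 genes, the other lists and the tests were chosen with earlier results of these data known. Every member could be named. Values in every library are given for CDK1, CCNB1, PLK1, AURKB, FOXM1, TOP2A, MKI67 and BUB3, for the lowest and highest change per role and compound, for the 4 smallest adjusted p between the compounds and, outside this rule, for AURKA, after its values were seen. From other lists up to 4 genes with the smallest adjusted p per comparison were taken.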

Additional observations from a re-analysis of the deposited data

How the results depend on the processing

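Results were recomputed under 20 alternative settings (19 for CENPE, CENPF, KIF14, KIF15 and NUF2, which the 5 TPM filter removed), 1 of them (FIDAS-5 replicate 3 and JQ1 replicate 3 left out together) chosen after the data were seen. With 1 library left out, the number of the 58 genes called ranged from 41 to 55 for FIDAS-5, 35 to 46 for JQ1 and 8 to 21 between the compounds (6 to 19 higher and 2 lower with JQ1), and the medians from -1.26 to -1.07, -0.92 to -0.68 and 0.13 to 0.35. Quantile normalization gave 22 calls between the compounds, 20 of them higher. Shares over all genes are given for the main fit only, so counts under the other settings have no background beside them. Leaving out both replicates 3 gave 1 gene lower with JQ1 than with FIDAS-5 in place of 2. No other setting moved these counts by over 1.5 times or a median beyond the spread of the libraries. CDC25B turned sign with FIDAS-5 to 0.01 (median-of-ratios scaling, protein-coding genes only) and, leaving out a library, to 0.11 and 0.17, and with JQ1 to 0.10 (over the libraries left out, -0.26 to 0.17 and -0.34 to 0.10). KIF18A with JQ1 turned to 0.11 with the GC trend removed. None of these values was called, and the cause was not tested. With the replicate number as a block, 53, 42 and 15 genes were called (FIDAS-5, JQ1 and between the compounds), so the replicate block moved no count by over 1.5 times. With it ASPM with JQ1 (adjusted p = 0.0367) and MKI67 with FIDAS-5 (adjusted p = 0.0465) were called. The labels give libraries of the same number nothing in common but that number. Between FIDAS-5 and JQ1 libraries of the same number, the correlations of their departures were 0.26, 0.10 and 0.42 for replicates 1 to 3. Their departures also followed GC content in the same direction (Spearman -0.51 and -0.65, -0.21 and -0.34, 0.55 and 0.64). With vehicle libraries of the same number the correlations ran from -0.08 to 0.16. Not every library correlated best with its own number, and what the treated libraries share was not tested. Depth is unknown from TPM, so counting error at low genes such as KIF14, CENPE, CENPF and, outside the 58, E2F7 could not be given.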

Other observations

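Of the 136 further genes of chromosome segregation and its regulation 24 were called higher with JQ1 than with FIDAS-5 (17.6%, near the 16.4% of all genes) and 9 lower (6.62%, against 18.5%). The genes named next were chosen after their values were seen. WEE1, the kinase that holds CDK1 inactive, had log2 fold changes of -0.76 with FIDAS-5 (adjusted p = 0.0505) and 0.18 with JQ1 (adjusted p = 0.571), a difference of 0.95 (adjusted p = 0.0134). KNL1, the kinetochore scaffold that binds BUB1 and BUB1B, differed by 0.97 (adjusted p = 0.0258), and SMC3, a core subunit of cohesin, by 1.02 (adjusted p = 0.0146). The cell cycle repressor E2F7 was at 2.27 ± 0.101 TPM (SD, n = 3) in vehicle, 0.396 ± 0.148 TPM with FIDAS-5 and 1.48 ± 0.568 TPM with JQ1, a difference between the compounds of 0.81 (adjusted p = 0.00798). E2F7 was at most 0.557 TPM in the FIDAS-5 libraries and 0.864 TPM in the lowest JQ1 library. The difference thus rests on values near or under the 1 TPM of the filter. In the other direction, HJURP, the chaperone that loads CENPA, was lower with JQ1 than with FIDAS-5 by 0.63 on the log2 scale (adjusted p = 0.0260), while CENPA itself differed by 0.02 (adjusted p = 0.947).

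Also among the 58, subunits of 1 complex had unequal values. With JQ1 the condensin subunits ran from -0.75 (SMC2) to 0.20 (SMC4), although SMC2 and SMC4 form a dimer, and the 2 Aurora kinases lay in opposite order between the compounds. Differences between genes within a group were not tested.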
